A study of Mus musculus with 23 samples.

Results

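Leukemias that arose in irradiated Pax5+/- mice were compared with leukemias that arose in irradiated wild-type (WT) mice. The comparison took in 13 of the 23 arrays of the series, which were 10 Pax5+/- and 3 WT leukemias, chosen by genotype and disease state in the sample titles. The series' design lists 4 WT leukemias, of which 1 was not analysed here. Pax5+/- mice carry 1 working copy of Pax5. Every mouse, control mice included, had received a single dose of 2 Gy at 2 months of age. Each array was taken to hold RNA from bone marrow of 1 mouse. Titles name leukemic pro-B cells, while the descriptions name leukemic marrow, and neither states a sort. Strain, sex and age at leukemia are not given in the sources used here, nor is how the Pax5 allele was inactivated. The remaining 10 arrays, used here only for the same genotype difference before leukemia, held B cell precursors (pro-B together with pre-B) of 7 Pax5+/- and 3 WT mice, collected 3 weeks after irradiation and before any leukemia.

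PAX5 is the transcription factor that commits lymphoid progenitors to the B cell lineage. It switches on genes of the B cell receptor pathway, such as Cd79a and Blnk, and holds genes of other blood lineages down. Loss of 1 copy is a recurrent lesion in B cell acute lymphoblastic leukemia, and inherited PAX5 variants predispose to it. Pro-B cells are the stage at which the heavy chain locus is rearranged, under signals from the interleukin-7 receptor, and the pre-B cell receptor takes over at the following stage.

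Only 1 gene passed the test. Ly86, which encodes MD-1, the secreted partner of CD180 (RP105), a Toll-like receptor relative on the surface of B cells, was higher in Pax5+/- leukemias. Levels throughout are the deposited log2 values, on which a difference of 1 is a doubling. Differences are Pax5+/- minus WT, each with its standard error (SE) and an adjusted p from limma over all 15222 genes tested. With a threshold of 0.05 on the adjusted p, 1 gene was higher (0.00657% of genes tested) and 0 were lower (0%). At an unadjusted p under 0.05 there were 705 genes (4.63%), 305 higher (2.00%) and 400 lower (2.63%). In 41 genes (0.269%) every Pax5+/- leukemia lay above every WT leukemia, and in 46 (0.302%) every one lay below. Differences over 2-fold were found for 135 genes, 103 of them lower in Pax5+/- leukemias. The median difference of all genes was 0.01. When all 4 groups of the series shared 1 estimate of the spread, 53 genes passed, 4 higher (0.0257%) and 49 lower (0.315%). That spread draws on the preleukemic samples, whose median SD within a group was 0.136 against 0.173 in the leukemias. Within the leukemias, 121 genes passed without WT leukemia 14, and 2 without Pax5+/- leukemia 3.

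Several libraries stood apart. WT leukemia 15 had the lowest mean level of B lineage markers, 9.46, against 11.16 and 11.14 in WT leukemias 14 and 17 and 10.42 to 11.41 in Pax5+/- leukemias. Its natural killer (NK) cell markers were the highest, with a mean of 8.41 against 5.54 and 5.88 in the other WT leukemias and 5.55 to 6.65 in Pax5+/- leukemias. Pax5+/- leukemia 2 had the lowest B lineage mean of its genotype and the highest monocyte and T cell marker means of all 13. Xist, the RNA of the inactive X chromosome, was above the Y-linked gene Eif2s3y in each of the 3 WT leukemias and in Pax5+/- leukemias 1, 2, 3, 5 and 8 (5 of 10), so the genotypes differed in sex makeup. Correlations between arrays overlapped within and between genotypes. Pearson's r over the genes tested was 0.938 to 0.984 between genotypes (median 0.965 over 30 pairs), 0.922 to 0.98 among Pax5+/- leukemias (median 0.966 over 45 pairs) and 0.969 to 0.975 among WT leukemias (median 0.971 over 3 pairs). WT leukemia 14 was most like Pax5+/- leukemia 10, WT leukemia 17 most like Pax5+/- leukemia 6, and WT leukemia 15 most like WT leukemia 14. The genotypes overlapped on each of the first 6 principal components, and on the fourth, with 9.87% of the variance, WT leukemias scored -24.5 to -4.3 and Pax5+/- leukemias -9.9 to 22.2. In bulk marrow RNA, fewer cells of a type and less RNA per cell cannot be told apart.

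Ly86 lay between 12.08 and 12.52 in the 10 Pax5+/- leukemias, with a median of 12.2. The 3 WT leukemias held 11.16 (sample 14), 9.56 (15) and 10.23 (17). All Pax5+/- leukemias were above all WT leukemias, and they were close together, with an SD of 0.163 against 0.804 in WT. The difference was 1.95 (SE 0.227, 95% interval 1.46 to 2.44), a 3.88-fold higher level in Pax5+/- (limma adjusted p = 0.0138). The exact two-sided permutation p was 0.0035 (n = 10 and n = 3), the smallest that the 286 splits allow. Ly86 was picked for its small p in these same samples, where its groups did not overlap. This permutation p restates that and adds no support. Among the leukemias with Xist above Eif2s3y, the 5 Pax5+/- samples again lay above all 3 WT samples, with a difference of 2.05 and an adjusted p of 0.525. Over 26 alternative settings the difference ran from 1.58 to 2.38. The gene passed in 23 of them, and the adjusted p rose above 0.05 in 3, which were the samples with Xist above Eif2s3y, the fit without WT leukemia 17 (1.91, adjusted p = 0.117) and the fit with the first component of the non-B cell markers as a covariate (1.79, adjusted p = 0.267). The part of sex makeup and of other marrow cells in the Ly86 difference was not tested further. The plot of Ly86, Cd180, Gnb4 and Pax5 levels shows each mouse.

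The 250 bases before the start of Ly86 are shown because it was the gene that passed. They lie at chr13:37345095-37345344 on the plus strand of GRCm38.p6, from RefSeq. Capitals mark 1 match of AGGAAG, a core recognised by ETS factors such as PU.1, read on the opposite strand. That motif, searched on both strands, was in 29.5% of 32851 promoter windows of this length.
Ly86: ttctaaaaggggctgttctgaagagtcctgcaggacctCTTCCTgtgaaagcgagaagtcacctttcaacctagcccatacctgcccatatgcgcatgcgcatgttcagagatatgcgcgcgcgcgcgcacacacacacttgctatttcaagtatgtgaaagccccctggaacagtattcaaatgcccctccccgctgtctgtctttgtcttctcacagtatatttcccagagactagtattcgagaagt

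The receptor partner of MD-1 was measured too. Cd180 lay between 10.68 and 12.09 in Pax5+/- leukemias (median 11.23) and was 11.31, 9.6 and 10.84 in WT leukemias 14, 15 and 17. The groups overlapped, and the lowest value was in the WT leukemia with the lowest B lineage markers. The difference of 0.66 (SE 0.32, 95% interval -0.04 to 1.35) did not pass (adjusted p = 0.995, exact permutation p = 0.105, n = 10 and n = 3).

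**Figure D1:**
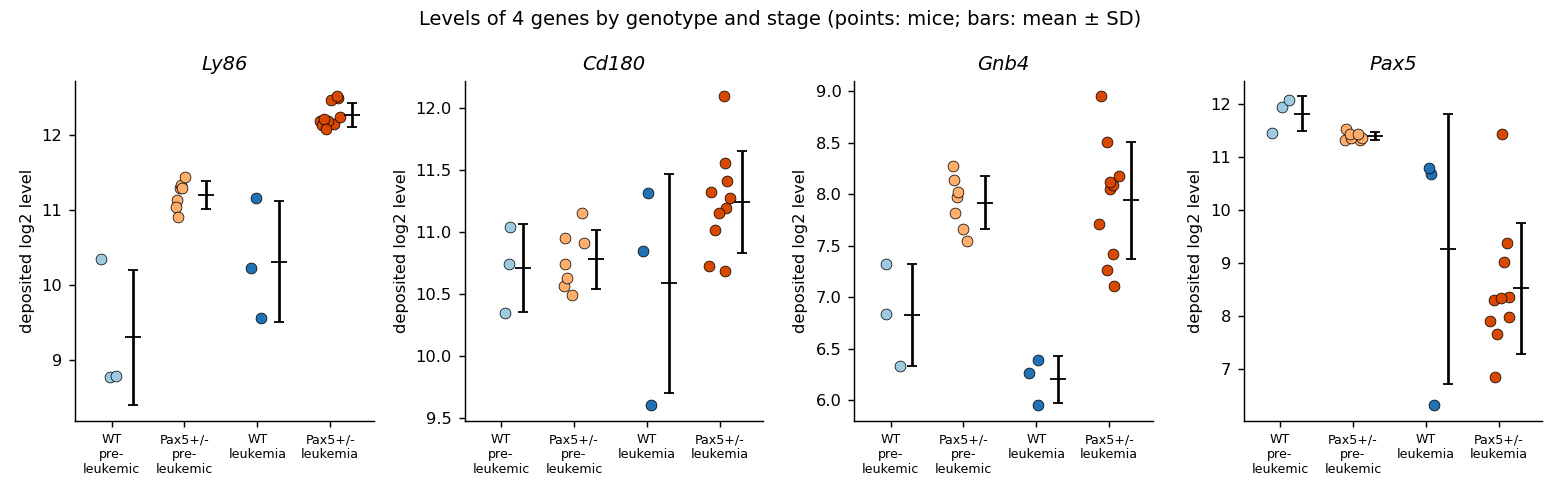
Deposited log2 level (y axis) of Ly86, Cd180, Gnb4 and Pax5 in each mouse (points) of the 4 groups (x axis), with the mean and SD beside them. Ly86 sits between 12.08 and 12.52 in the 10 Pax5+/- leukemias, above the 3 WT leukemias, while Cd180 and Pax5 overlap between genotypes.

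Among the genes of smallest p that were higher in Pax5+/- leukemias without passing, Gnb4, a beta subunit of heterotrimeric G proteins, differed most. Its level was 7.11 to 8.95 in Pax5+/- leukemias (median 8.07) and 5.95, 6.26 and 6.39 in WT leukemias 14, 15 and 17. The groups did not overlap. The difference was 1.74 (SE 0.321, 3.34-fold, adjusted p = 0.262), and it passed with all 4 groups in the fit (adjusted p = 0.0155). Ssr1, a subunit of the translocon-associated complex of the endoplasmic reticulum, was 10.84 to 11.47 in Pax5+/- leukemias and 10.57 to 10.64 in WT. Its groups did not overlap either, and the difference was 0.52 (SE 0.12, adjusted p = 0.276). The zinc finger gene Zfp740 differed by 0.49 (SE 0.101, adjusted p = 0.262), with 7.85 to 8.31 against 7.49 to 7.62. Differences in the others were smaller than 2-fold. They were 0.42 for Dalrd3, a cofactor of tRNA methylation, 0.34 for Sec22c, a protein of transport between endoplasmic reticulum and Golgi, 0.48 for Rtl6, 0.19 for Zfp957, 0.48 for the cilium kinase gene Ttbk2 and 0.25 for Ociad1. Of these 6 genes, Dalrd3, Zfp957, Ttbk2 and Ociad1 did not overlap between genotypes, and Sec22c and Rtl6 did. The gaps were small. The lowest Pax5+/- levels were 9.11, 5.27, 7.91 and 10.44, and the highest WT levels 9.1, 5.25, 7.86 and 10.3. Over all genes 0.269% did not overlap in this direction, but these genes were picked for small p in the same comparison.

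On the lower side, the genes of smallest p were led by genes of red blood cells, and none passed with the leukemias alone. Red cell precursors make heme in a chain of enzymes, carry bicarbonate and chloride across the membrane with band 3, and depend on the transcription factors GATA1 and KLF1. Car1, the carbonic anhydrase of early red cells, was 5.35 to 7.33 in Pax5+/- leukemias (median 6.23). In WT leukemias 14, 15 and 17 it was 7.84, 10.79 and 11.47. The groups did not overlap, but WT leukemia 14 was nearer to the highest Pax5+/- leukemia than to the other WT leukemias. The difference was -3.70 (SE 0.661, 13.0-fold, adjusted p = 0.262, and 0.0178 with all 4 groups in the fit). Klf1 was 5.12 to 5.51 in Pax5+/- leukemias (median 5.39) and 5.58, 6.63 and 7 in WT leukemias 14, 15 and 17, without overlap. The levels in Pax5+/- leukemias and in WT leukemia 14 were below the array medians of 6.06 to 6.18. Its difference was -1.04 (SE 0.202, adjusted p = 0.262).

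Slc4a1, which encodes band 3, was 6.28 to 7.53 in Pax5+/- leukemias (median 6.95). It was 7.45 in WT leukemia 14 and 11.29 and 11.52 in WT leukemias 15 and 17. Here WT leukemia 14 fell inside the Pax5+/- range. The difference was -3.15 (SE 0.644, adjusted p = 0.262). Cpox, an enzyme late in heme synthesis, differed by -1.48 (SE 0.284), and Alas2, the first enzyme of heme synthesis in red cells, by -3.01 (SE 0.68, adjusted p = 0.272). Fech, which inserts the iron, differed by -1.51, the blood group gene Rhd by -2.18, and the membrane genes Epb42 (protein 4.2) and Ermap by -2.26 and -2.03. The rest of the 10 genes of smallest p on the lower side included the transporter gene Abcg4 (-0.57) and the vasopressin receptor gene Avpr1a (-0.25). The others were the zinc finger genes Zfp605 (-1.15) and Zfp462 (-0.81), the carboxylesterase gene Ces2g (-1.37) and the ubiquitin ligase gene Fbxo30 (-0.94). Each had an adjusted p of 0.262. In WT leukemias 14, 15 and 17, Ces2g was 5.27, 6.86 and 7.33, Fbxo30 6.05, 7.06 and 7.38, and Abcg4 6.46, 7.02 and 7.19. Like the red cell genes, these were higher in WT leukemias 15 and 17 than in 14. In Pax5+/- leukemias Ces2g was 5 to 5.23, below the array medians of 6.06 to 6.18 and near the filter on low levels. It may have entered the test through the WT leukemias alone, so its place among the genes of smallest p supports nothing. Zfp605 was highest in WT leukemia 14, at 7.03. The part of red cells in these differences was not tested.

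Of 16 erythroid markers listed, 10 were tested, and all 10 had a negative difference, with a median of -2.06. Over all genes tested, 46.4% were negative. Of the 10, 0 passed with the leukemias alone, 9 were at an unadjusted p under 0.05 (2.63% of all genes were, on the lower side), 3 did not overlap (Car1, Klf1 and Ermap, against 0.302% of all genes), and 5 passed with all 4 groups in the fit (against 0.315%). The mean level of the list was 6.25 to 7.08 in Pax5+/- leukemias and 7.18, 9.35 and 9.62 in WT leukemias 14, 15 and 17, so the size of the difference came from WT leukemias 15 and 17. Without WT leukemia 14, 8 of the 10 markers passed lower, against 0.77% of all genes, and the median was -2.78. Without WT leukemia 15 it was -1.75 and without WT leukemia 17 it was -1.44, and 0 passed in either. A wider group of 29 red cell genes, chosen after their values were seen, had 26 members tested, all negative, with a median of -1.50. Of these, 4 did not overlap and 20 passed with all 4 groups in the fit. Because the genes were picked with their values known, the counts of this wider group support nothing.

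**Figure D2:**
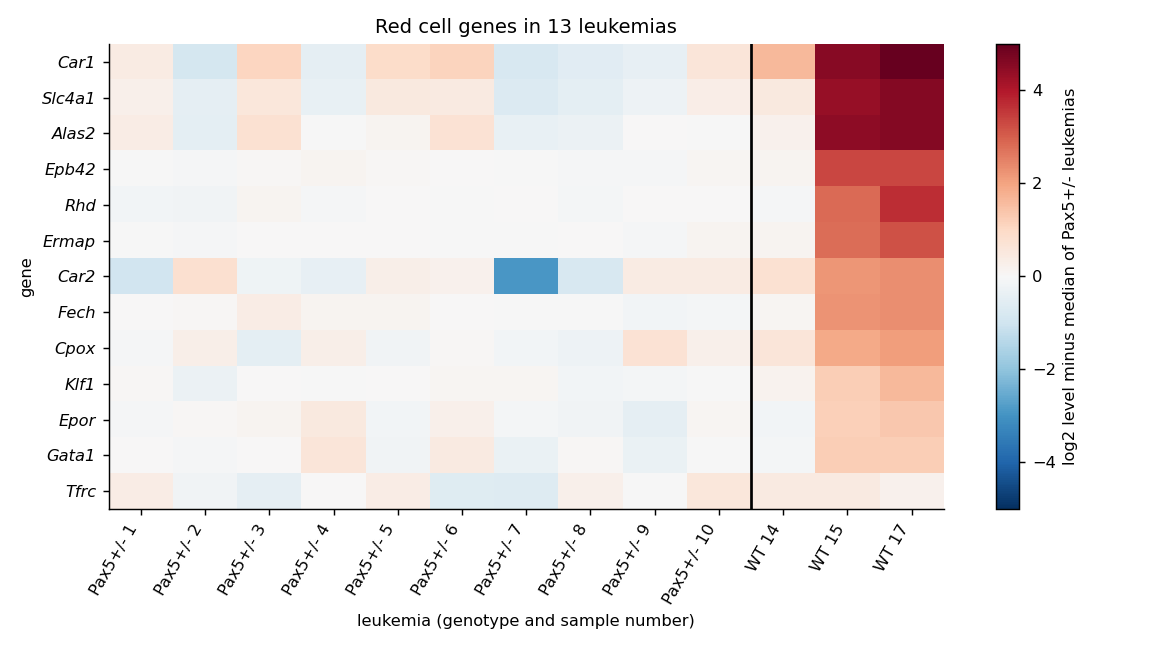
Colour gives the log2 level of 13 red cell genes (rows) minus the median of the Pax5+/- leukemias, in each of 13 leukemias (columns, the black line parts the genotypes). WT leukemias 15 and 17 are higher for most genes, up to 11.47 for Car1 against a Pax5+/- median of 6.23, while WT leukemia 14 lies close to the Pax5+/- leukemias.

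Promoters of 3 red cell genes, Klf1, Ermap and Epb42, are shown as examples of genes that were highest in WT leukemias 15 and 17. Their genotypes did not overlap, but WT leukemia 14 lay just above the Pax5+/- leukemias. The highest Pax5+/- level was 5.51 in Klf1, 6.03 in Ermap and 5.33 in Epb42. In WT leukemia 14 the levels were 5.58, 6.05 and 5.34. All of these were below the array medians of 6.06 to 6.18, so the lack of overlap rests on small gaps between low signals. Epb42, like Ces2g, lay near the filter on low levels there. Each run is the 250 bases before the start, from RefSeq on GRCm38.p6. Klf1 lies at chr8:84901732-84901981 (plus strand), Ermap at chr4:119189996-119190245 (minus strand) and Epb42 at chr2:121036878-121037127 (minus strand). Capitals mark matches, on either strand, of a CACC box (CCACCC), which KLF factors recognise, or of a GATA factor site. The latter was searched as AGATAA, also with T as its first letter and with G as its last.
Klf1: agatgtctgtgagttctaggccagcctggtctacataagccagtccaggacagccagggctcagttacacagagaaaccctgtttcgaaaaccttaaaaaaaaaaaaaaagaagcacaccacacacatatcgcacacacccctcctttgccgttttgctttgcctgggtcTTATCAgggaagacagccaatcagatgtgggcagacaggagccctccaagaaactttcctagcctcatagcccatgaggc
Ermap: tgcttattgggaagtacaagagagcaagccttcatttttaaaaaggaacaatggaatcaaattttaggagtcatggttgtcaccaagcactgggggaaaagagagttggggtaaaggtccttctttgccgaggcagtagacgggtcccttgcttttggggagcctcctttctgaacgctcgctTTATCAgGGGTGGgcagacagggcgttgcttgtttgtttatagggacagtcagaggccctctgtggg
Epb42: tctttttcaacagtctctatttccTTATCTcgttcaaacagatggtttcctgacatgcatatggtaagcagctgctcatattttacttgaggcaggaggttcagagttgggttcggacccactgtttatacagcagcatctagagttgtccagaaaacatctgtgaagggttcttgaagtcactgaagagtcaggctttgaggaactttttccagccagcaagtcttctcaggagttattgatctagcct

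All 3 windows held 1 GATA match, which began 80 bases before the start in Klf1, 67 in Ermap and 226 in Epb42. Ermap also held a CACC box at 60 bases, next to its GATA match. Alas2 held 1 GATA match and 3 CACC boxes, and Cpox held 2 GATA matches. The window of Gata1 held 0 GATA matches and 1 CACC box. In all 32851 windows of this length, 26.5% held a GATA match and 28.1% a CACC box. A match is a run of letters, and binding was not measured.

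Pax5 itself overlapped between genotypes. It ranged from 6.85 to 11.42 in Pax5+/- leukemias (median 8.32) and was 10.68, 6.32 and 10.78 in WT leukemias 14, 15 and 17. The highest Pax5+/- value, in leukemia 7, was above every WT leukemia, and the lowest value of all was in a WT leukemia. The difference was -0.74 (95% interval -2.76 to 1.29). An exact two-sided permutation test with n = 10 and n = 3 gave p = 0.493. Leaving out WT leukemia 15 moved the difference to -2.21, with an exact p of 0.0455, and leaving out WT leukemia 17 moved it to 0.02. Whether the probes lie in the inactivated part of the gene is not given, so these levels do not check the genotype.

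Genes that PAX5 is known to activate had small differences. Of 25 tested, 20 were positive, with a median of 0.20, and 0 passed. The median was 0.11, with 8 negative, without WT leukemia 15 and 0.37, with 3 negative, without WT leukemia 17. The highest difference was that of Blnk, the adaptor that links the pre-B cell receptor to its signalling enzymes, which was 9.72 to 11.42 in Pax5+/- leukemias and 10.37, 6.34 and 10.04 in WT leukemias 14, 15 and 17. Only WT leukemia 15 was outside the Pax5+/- range. The difference was 1.56 (SE 0.645, adjusted p = 0.995), and it was 0.27 without that library. Genes that PAX5 represses had a median of -0.04 over 23 tested, 13 of them negative and 0 passed. Ccr2, a chemokine receptor of monocytes, was lowest in that list, at -2.80 (SE 0.786, adjusted p = 0.521). It was 5.11 to 9.28 in Pax5+/- leukemias (median 5.34), and 9.01, 7.37 and 9.87 in WT leukemias 14, 15 and 17. Leukemia 1 was the only Pax5+/- sample within the WT range. Csf1r, the receptor of the macrophage growth factor and a classical target of PAX5 repression, was 7.7 to 10.96 in Pax5+/- leukemias (median 8.48) and 11.72, 10.88 and 8.59 in WT leukemias, with overlap and a difference of -1.61 (SE 0.687, adjusted p = 0.995).

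Pre-B cell receptor signalling genes leaned the same way as the activated genes. Of 18 tested, 17 were positive, the median was 0.16 and 0 passed. At an unadjusted p under 0.05 there were 3, against 2.00% of all genes on the higher side. Those were Blnk, the kinase gene Blk (1.17, SE 0.463, adjusted p = 0.973) and Pik3ap1, the adaptor BCAP that couples to PI 3-kinase (0.53, SE 0.189, adjusted p = 0.812). Mean levels of this list were 10.04 to 10.51 in Pax5+/- leukemias and 10.13, 9.43 and 10.14 in WT leukemias 14, 15 and 17. Without WT leukemia 15 the median was 0.08 and 5 of 18 were negative, and without WT leukemia 17 it was 0.32. Blk differed by 0.48 without WT leukemia 15. Pro-B cell genes had a median of 0.18, with 20 of 22 positive and 0 passed, and 0.05 with 9 negative without that library. In this list the surrogate light chain gene Vpreb1 differed by 1.06 (SE 0.509), and Vpreb2, its near copy, by 0.55, both with an adjusted p of 0.995. Because the pair is nearly identical, their probes may share signal. Rag1, which cuts receptor genes for rearrangement, differed by 0.98 and Dntt, which adds bases at the joints, by 0.89, and both were lowest in WT leukemia 15. Ebf1, the factor that works beside PAX5, differed by 0.33. Without WT leukemia 15, Rag1 differed by 0.098, and Dntt and Ebf1 turned slightly negative, to -0.02 and -0.05.

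Small pre-B and immature B cell genes had a median of 0.01 over 21 tested, and Ly86 was the member that passed. Of 10 immunoglobulin segments tested, 7 were negative and 0 passed, with a median of -0.40. Differences in the list ran from -2.54 to 0.51. Igkv9-120, a kappa light chain segment, was 7.01 to 9.82 in Pax5+/- leukemias (median 8.45) and 11.77, 9.59 and 9.97 in WT leukemias 14, 15 and 17. The groups overlapped, and the difference was -1.86 (SE 0.606, adjusted p = 0.686). Segments of a family are near copies, and probes may not separate them. Of 4 T cell receptor segments tested, 3 were negative, with a median of -0.06, and 0.05 without WT leukemia 15.

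Interleukin-7 and JAK-STAT genes, which carry survival signals in B cell precursors, centred on 0.02, with 11 of 20 positive and 0 passed, and on -0.007 and -0.02 without WT leukemias 14 and 17. The lowest difference in the list was that of Stat5a. Stat5a, the transcription factor downstream of the interleukin-7 receptor, was 7.86 to 8.11 in 9 Pax5+/- leukemias and 9.88 in Pax5+/- leukemia 6. In WT leukemias 14, 15 and 17 it was 9.19, 11.08 and 7.9. High levels thus occurred in 3 of 13 leukemias, of both genotypes. Its neighbour in function, Stat5b, was 11.09 in Pax5+/- leukemia 6 and 10.71 and 10.86 in WT leukemias 14 and 15, against 8.22 to 8.99 in the others. The same 3 leukemias were high for both genes. Differences were -1.20 for Stat5a (SE 0.527) and -1.10 for Stat5b (SE 0.569), each with an adjusted p of 0.995. Bcl2l1, the survival gene that encodes BCL-XL, differed by -0.78 (SE 0.217, adjusted p = 0.521), with 6.95 to 7.68 in Pax5+/- leukemias and 7.34, 8.63 and 8.15 in WT leukemias 14, 15 and 17. RAS-MAPK genes had a median of 0.13, with 19 of 25 positive and 0 passed. That median was 0.054 without WT leukemia 14, 0.055 without WT leukemia 15 and 0.24 without WT leukemia 17. Nf1, which encodes a brake on RAS, differed by 0.29 (SE 0.134, adjusted p = 0.995), and Rasa1, another such brake, by 0.17.

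Growth and division genes had small negative differences. DNA replication genes had 21 of 24 negative with a median of -0.15, mitosis genes 22 of 23 negative with a median of -0.14, and MYC targets and ribosome biogenesis genes 17 of 23 negative with a median of -0.12. In each of these lists 0 passed. Without WT leukemia 14 the mitosis median was -0.085, with 16 negative, and the MYC target median -0.051, with 14 negative. Without WT leukemia 17 they were -0.24 and -0.26. Rrm2, a subunit of ribonucleotide reductase, was 8.21 to 9.97 in Pax5+/- leukemias (median 9.68) and 10.14 to 10.18 in WT, without overlap, and differed by -0.58 (SE 0.278, adjusted p = 0.995). Birc5, which encodes survivin, differed by -0.37, Aurka, a mitotic kinase, by -0.29, the replication gene Mcm10 by -0.24, the nucleolar gene Npm1 by -0.26 and the chaperone gene Hspd1 by -0.41. In glycolysis genes 11 of 13 were negative, with a median of -0.10, and -0.21 without WT leukemia 17.

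Damage response and repair genes differed little. The p53 target genes had a median of 0.06, with 16 of 23 positive and 0 passed. Gadd45a, a growth arrest gene in that list, was 6.66 to 7.13 in Pax5+/- leukemias and 6.89, 7.9 and 8.05 in WT leukemias 14, 15 and 17, a difference of -0.67 (SE 0.182, adjusted p = 0.497). Xpc, a sensor of damaged DNA, differed by 0.43 (adjusted p = 0.995). Homologous recombination and Fanconi genes had 14 of 18 negative with a median of -0.06, which was 0.01 without WT leukemia 14 and -0.17 without WT leukemia 15. End joining genes were split 6 to 6, with a median of 0.01, and -0.04 without WT leukemia 15. Base excision and mismatch repair genes had a median of 0.03, and -0.01 without WT leukemia 17, with the glycosylase gene Neil1 at 0.39 and the ligase gene Lig1 at -0.31. Of 23 drivers and suppressors of B cell leukemia, 18 were positive, with a median of 0.10, or 0.05 without WT leukemia 15, and 0 passed. Rb1 in that list differed by -0.37 (SE 0.194, adjusted p = 0.995). Progenitor and self-renewal genes had a median of 0.05 over 18 tested, with Tal1, a factor shared with red cells, at -0.35 (SE 0.111, adjusted p = 0.642).

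**Figure D3:**
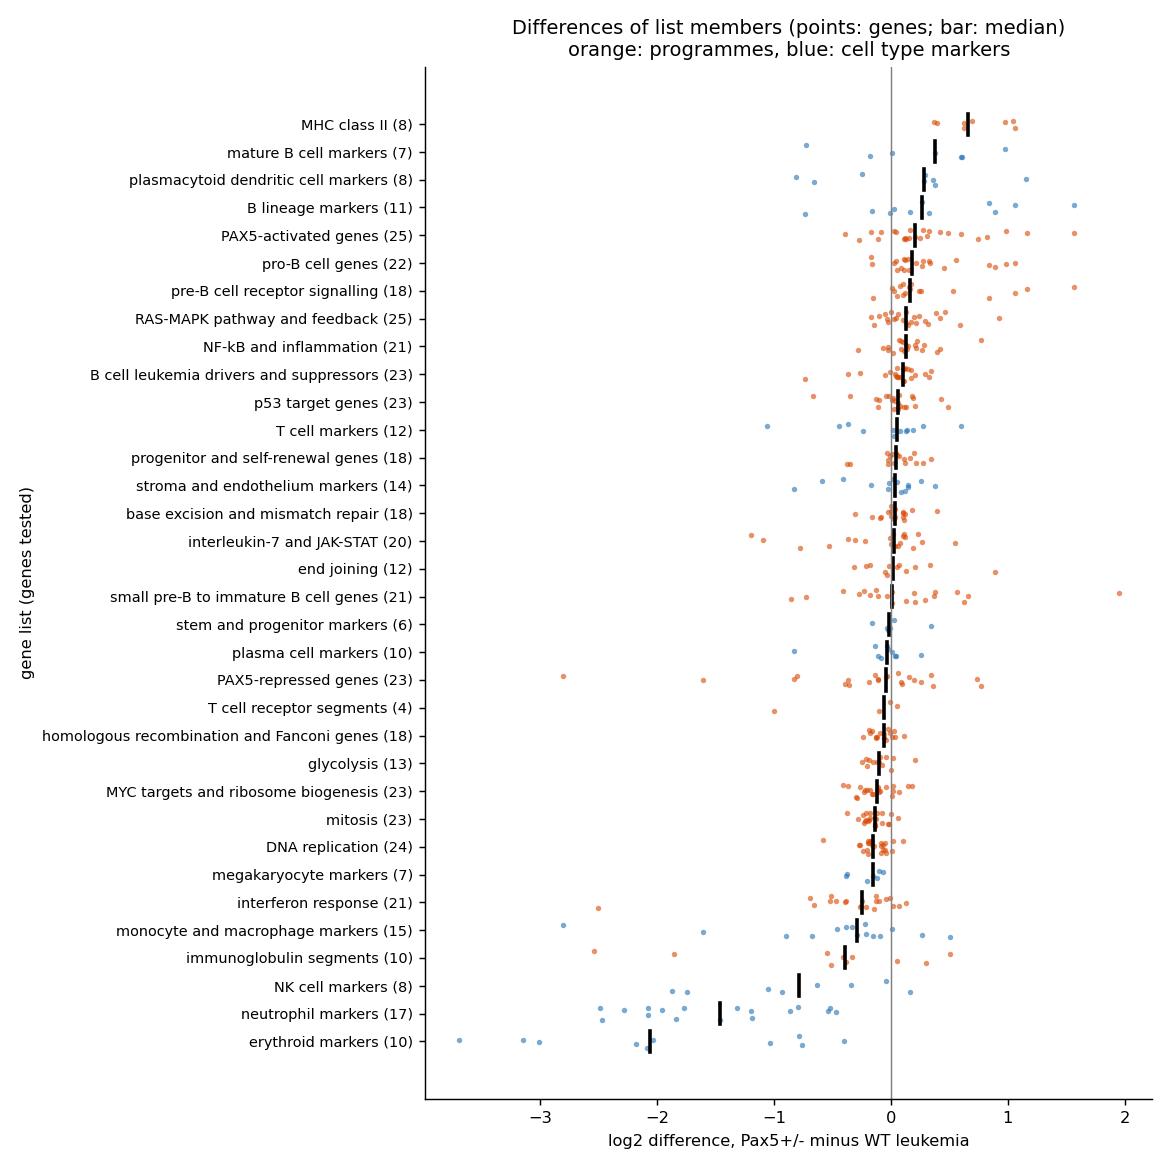
Each point is a gene, placed by its log2 difference, Pax5+/- minus WT leukemia (x axis), in the gene lists (y axis, with the number of genes tested), and the bar is the list's median. Erythroid markers have the lowest median, -2.06, followed by neutrophil markers at -1.46, and MHC class II genes have the highest, 0.66.

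Markers of granulocytes had negative differences with overlap between genotypes. All 17 neutrophil markers tested had a negative difference, with a median of -1.46. Over all genes tested, 46.4% were negative. Of the 17 markers 0 passed and 0 were free of overlap (0.302% of all genes were, on the lower side). At an unadjusted p under 0.05 there were 3, against 2.63% of all genes on the lower side. The mean of the list was 9.1, 9.57 and 10.02 in WT leukemias 14, 15 and 17. It ran from 6.04 to 10.66 in Pax5+/- leukemias (median 8.16), where leukemias 2 and 6 lay above all WT leukemias. Retnlg, a resistin-like secreted protein of neutrophils, differed by -2.47 (SE 0.834, adjusted p = 0.737), Cxcr2, their chemokine receptor, by -1.96 (SE 0.731, adjusted p = 0.865), and the collagenase gene Mmp8 by -2.49 (SE 0.993, adjusted p = 0.973).

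Monocyte and macrophage markers had 12 of 15 negative, with a median of -0.29 and 0 passed. Their mean was 8.05 to 8.14 in WT leukemias and 6.71 to 8.91 in Pax5+/- leukemias, of which leukemia 2 was the only one above WT. All 7 megakaryocyte markers tested were negative, with a median of -0.15, which was 0.07, with 2 negative, without WT leukemia 17. Ppbp, a platelet chemokine, was 10.59 to 13.19 in Pax5+/- leukemias and 12.54 to 12.98 in WT, a difference of -0.38 (adjusted p = 0.995). NK cell markers had 7 of 8 negative with a median of -0.79, which was 0.19, with 1 of 6 negative, without WT leukemia 15, and -1.49 and -1.20 without WT leukemias 14 and 17. Ncr1, the receptor NKp46, was 10.38 in WT leukemia 15 and 4.73 to 5.39 in the other 12, and the granzyme gene Gzma was 10.75 there and 4.51 to 7.11 elsewhere. T cell markers had a median of 0.05, plasma cell markers -0.03, stroma and endothelium markers 0.03, mature B cell markers 0.38, plasmacytoid dendritic cell markers 0.28 and stem and progenitor markers -0.02, with 0 passed in each. Mature B cell markers turned to -0.27 without WT leukemia 17, plasmacytoid dendritic cell markers to -0.08 without WT leukemia 14, and stem and progenitor markers to 0.12 without WT leukemia 15. B lineage markers had a median of 0.27 with 8 of 11 positive, -0.02 with 7 negative without WT leukemia 15, and 0.60 without WT leukemia 17.

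**Figure D4:**
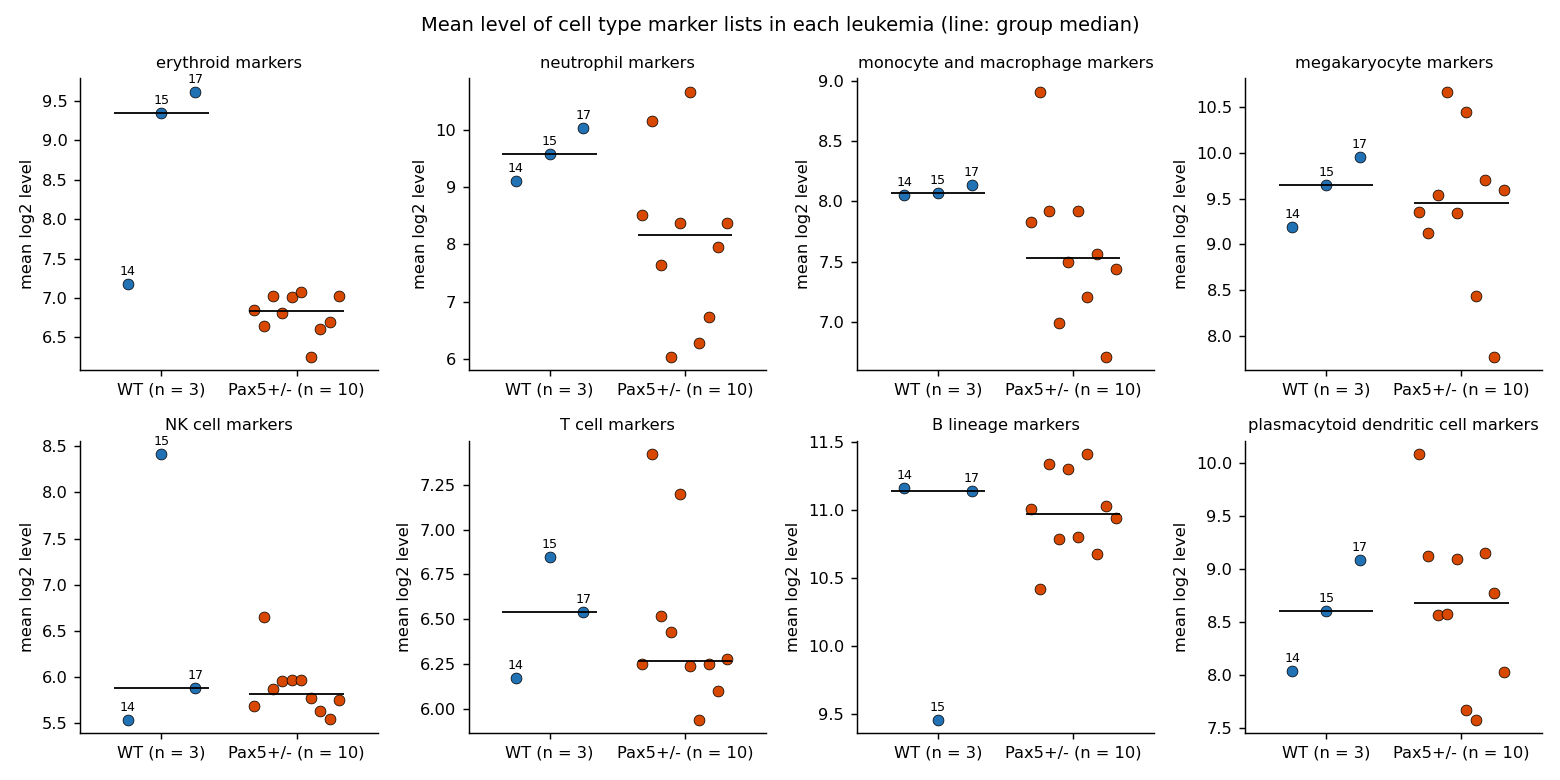
Mean log2 level (y axis) of 8 lists of cell type markers in each leukemia (points), by genotype (x axis), with the group median as a line and sample numbers beside WT leukemias. WT leukemias 15 and 17 are high for erythroid markers (9.35 and 9.62), and WT leukemia 15 is high for NK cell markers (8.41) and low for B lineage markers (9.46).

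Interferon response genes had 18 of 21 negative with a median of -0.24, and 0 passed. Rsad2, the antiviral enzyme viperin, was 5.6 to 6.61 in Pax5+/- leukemias (median 6.04) and 5.65, 10.25 and 9.73 in WT leukemias 14, 15 and 17. WT leukemia 14 sat among the Pax5+/- leukemias, and the others were far above. Its difference was -2.51 (SE 0.672, adjusted p = 0.465). The direction of the list rested on 1 library, since without WT leukemia 15 the median was 0.31, with 2 of 20 negative, while it was -0.65 and -0.50 without WT leukemias 14 and 17. NF-kB and inflammation genes had a median of 0.13 with 17 of 21 positive (0.07 without WT leukemia 14 and 0.20 without WT leukemia 15), and Nfkbie, an inhibitor of NF-kB, differed by 0.42 (SE 0.178, adjusted p = 0.995).

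MHC class II genes, which present antigen to helper T cells, all leaned higher. All 8 tested were positive, with a median of 0.66, which was 0.38 without WT leukemia 15, and 0 passed. H2-DMa, which loads peptide onto class II molecules, was 7.96 to 10.73 in Pax5+/- leukemias (median 8.69) and 8.11, 7.49 and 7.9 in WT leukemias 14, 15 and 17. The groups overlapped through Pax5+/- leukemia 7. It differed by 1.06 (SE 0.458, adjusted p = 0.995), and H2-Ob, a modulator of that loading, by 1.05 (SE 0.565, adjusted p = 0.995). The mean of the list was 8.59, 7.68 and 8.64 in WT leukemias 14, 15 and 17 and 8.08 to 11.15 in Pax5+/- leukemias, with the highest in leukemia 2, which also had the highest monocyte markers. The part of those cells in the class II levels was not tested.

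The same genotype difference was measured before leukemia, in other mice. There 249 of 15011 genes passed (1.66%), 83 higher (0.553%) and 166 lower (1.11%) in Pax5+/- cells. The count was 104 without WT preleukemic sample 19, 387 without WT preleukemic sample 20, 159 without Pax5+/- preleukemic sample 22 and 97 with all 4 groups in the fit. Ly86 was among them. It was 10.91 to 11.44 in the 7 Pax5+/- samples (median 11.3) and 8.78, 8.79 and 10.35 in the 3 WT samples, without overlap. The difference was 1.90 (SE 0.277, adjusted p = 0.00433). Its exact permutation p was 0.00833 (n = 7 and n = 3), the smallest that the 120 splits allow. The change in the difference with leukemia was 0.05 (SE 0.38, interaction adjusted p = 0.993). In both genotypes the mean was higher in leukemia than before it, 12.27 against 11.21 in Pax5+/- and 10.32 against 9.31 in WT. WT preleukemic sample 20, the highest of the WT samples for Ly86, was also high for Slc4a1 (10.7), Ccr2 (8.97) and Cxcr2 (9.05), genes of red cells, monocytes and neutrophils. Xist was above Eif2s3y in Pax5+/- preleukemic samples 22, 23 and 24 and in none of the WT preleukemic samples. The genotypes thus differed in sex makeup before leukemia too, and the part of sex in these differences was not tested.

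Of the 87 genes whose leukemia groups did not overlap, 85 were tested before leukemia. Of these, 5 (5.88%) passed there in the same direction and 0 in the opposite one, where 1.66% of all genes passed. They were Ly86, Gnb4, Gpat3, Crip2 and Slc1a5. Gnb4 differed by 1.09 before leukemia (SE 0.199, adjusted p = 0.0185). Gpat3, an enzyme of triglyceride synthesis, differed by 1.01 in leukemia and 0.82 before it (adjusted p = 0.676 and 0.0492). Crip2, a LIM domain protein, differed by -0.52 and -0.49 (adjusted p = 0.287 and 0.0206). Slc1a5, the glutamine transporter ASCT2, was 7.96 to 9.12 in Pax5+/- leukemias and 9.26, 9.56 and 9.95 in WT leukemias, against 8.17 to 8.84 and 11.3 to 11.79 before leukemia. At both stages all Pax5+/- samples were below all WT samples. Its difference was -1.20 in leukemia (adjusted p = 0.262) and -3.09 before it (SE 0.154, adjusted p = 8.21e-07). Of the 244 genes that passed before leukemia and were tested in leukemia, 161 (66%) had the same sign there and 83 the opposite one, and 1 passed. The share of same signs over all genes was not computed, so the 66% has no background to be read against. Of the red cell genes, Car1 differed by -0.58 before leukemia (adjusted p = 0.743), Klf1 by -0.03 (adjusted p = 0.951) and Slc4a1 by -0.97 (adjusted p = 0.512). Their change between stages did not pass (interaction adjusted p = 0.378, 0.194 and 0.638).

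**Figure D5:**
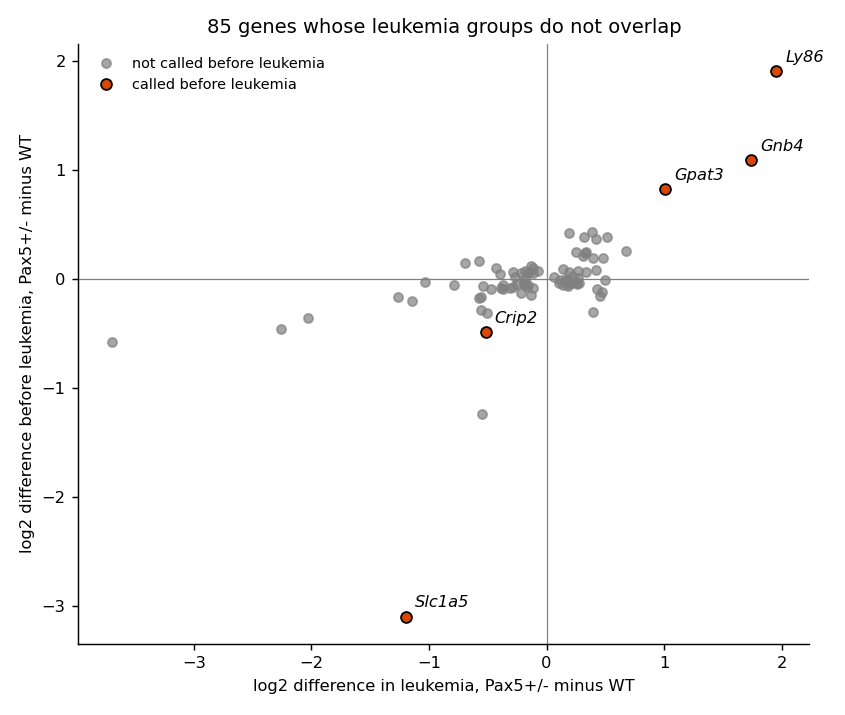
Each point is 1 of the 85 genes whose leukemia groups did not overlap, placed by its log2 difference, Pax5+/- minus WT, in leukemia (x axis) and before it (y axis). The 5 genes that passed before leukemia are named, and Ly86, at 1.95 and 1.90, is the highest on both axes.

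The change of the genotype difference between stages was tested as an interaction. Of 15542 genes, 15 passed, all positive (0.0965%), meaning that the difference was higher in leukemia than before it, and 0 were negative (0%). At an unadjusted p under 0.05 there were 1118. Dock9, an activator of the GTPase CDC42, was lower in Pax5+/- cells before leukemia (-1.71, adjusted p = 0.000665) and differed by 1.04 in leukemia (adjusted p = 0.642). The interaction was 2.75 (SE 0.407, adjusted p = 0.00373). In the next 3 genes a negative difference before leukemia was near 0 in leukemia. Edaradd, an adaptor of the ectodysplasin receptor, went from -1.96 to -0.04 (interaction 1.92, adjusted p = 0.000904) and the collagen gene Col5a3 from -0.92 to -0.04 (interaction 0.88, adjusted p = 0.00271). Pacs2, a sorting protein, went from -1.43 to 0.19 (interaction 1.62, adjusted p = 0.00439). Edaradd was low in the leukemias of both genotypes, 5.66 to 6.45 in Pax5+/- and 5.74 to 6.45 in WT. The array medians there were 6.06 to 6.18. Before leukemia its means were 7.20 in Pax5+/- and 9.16 in WT, so its interaction largely restates the difference before leukemia. The difference of Slc1a5 was negative at both stages (interaction 1.90, adjusted p = 0.0139). Tmc7 had the smallest p of those named (interaction 1.56, adjusted p = 0.000104), but in the leukemias it was at 4.87 to 5.14, below the filter on low levels, and it entered through the preleukemic samples. Its interaction restates the difference of -1.51 before leukemia, and says nothing of the genotypes in leukemia. The count was 98 without WT leukemia 14 (24 positive and 74 negative), 9 without WT leukemia 15, 24 without Pax5+/- leukemia 7, and 6 and 36 without WT preleukemic samples 19 and 20. Since the 3 WT leukemias had Xist above Eif2s3y and the 3 WT preleukemic samples did not, stage and sex cannot be told apart in WT mice.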

How the data were processed

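RNA of 23 marrow samples, extracted with Trizol and biotinylated, was hybridised to arrays with a single label, as the labels' protocols describe. What the authors deposited are log2 signals, 1 value per probe set of a gene, with 2 decimals. Transcriptome Analysis Console is named in the submitters' processing notes with no version, and background correction and normalization are not given in the sources used here. Medians of the 13 leukemia arrays were 6.06 to 6.18. Precision is limited by the number of arrays, above all by the 3 WT leukemias. That leukemias came from separate mice follows from mouse numbers in the labels for Pax5+/- samples and from sample names for WT.

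Of 28944 probe sets, 21789 carried 1 gene symbol, 1621 several and 5534 none. Symbols were updated through Entrez IDs (21698 matched), and the probe set of highest mean stood for each of 19938 symbols. A gene was tested if it was above the 30th percentile of the array in 3 or more of the 13 leukemias, which kept 15222 and removed 4716. Genotypes were compared with limma 3.58.1 in R 4.3.3 (lmFit, eBayes with trend, two-sided, Benjamini-Hochberg over all genes tested, threshold 0.05). Single genes were also compared by exact permutation of samples. The 10 preleukemic samples were fitted alone, and the interaction was fitted over 4 groups. The scripts were tested on simulated data.

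The comparison, the gene lists and the tests were chosen with earlier results of these data known. Named genes were Pax5, Xist, Eif2s3y, the 10 genes of smallest p in each direction (passing ones first, without predicted genes and receptor segments), the 2 or more members of smallest p in each list, and the interaction genes of smallest p. Other genes, among them Cd180, Gpat3, Crip2, Slc1a5, Apobec3, Rag1, Ebf1, Stat5b, Mmp8 and further red cell genes, were picked once their values were known. Settings tried besides were other filters, priors, normalizations, probe set rules, array weights, sex or marker covariates, and left-out samples. Promoter windows came from RefSeq on GRCm38.p6, which held 7 of 10 genes looked for. Figures were drawn with matplotlib 3.10.9.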

Additional observations from a re-analysis of the deposited data

Results flagged for a closer look

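Among 82 gene levels examined in the 10 Pax5+/- leukemias, 13 had a sample far from the others. A sample counted as far when its gap to the next exceeded 0.466 of the range. The genes were those named here, and some were picked with their values known, so no chance rate applies to this count. Leukemia 6 was highest for Stat5a (9.88, the next at 8.11) and Stat5b (11.09, the next at 8.99). Leukemia 1 was highest for Ccr2 (9.28, the next at 7.03), leukemia 2 for H2-DMa (10.73, the next at 9.34) and leukemia 5 for Gzma (7.11, the next at 5.33) and Ociad1 (10.73, the next at 10.59). Leukemia 7 was lowest for Car2 (6.22, the next at 8.16). Leukemia 4 was lowest for Rrm2 (8.21, the next at 9.53) and Lig1 (8.66, the next at 9.13), both replication genes, and leukemia 8 was lowest for Gadd45a (6.66, the next at 6.89). Leukemia 3 was highest for Zfp462 (6.73, the next at 6.25), and leukemia 10 for Ermap (6.03, the next at 5.93) and Npm1 (11.38, the next at 11.13).

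For 6 named genes the genotype difference in leukemia was tested to differ from that before leukemia, by limma's interaction term. They had been named for a small interaction p or picked once their values were known, so no chance rate applies to this count. The difference between stages was 1.92 for Edaradd, 0.88 for Col5a3, 2.75 for Dock9, 1.62 for Pacs2 and 1.90 for Slc1a5. It was 1.56 for Tmc7, which was below the filter on low levels in the leukemias, so this value restates its difference before leukemia. Edaradd, too, was low in the leukemias, near the array medians. WT mice of the 2 stages also differed in sex, and the part of sex in these values was not tested.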

How the results depend on the processing

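The 3 WT leukemias limit every genotype comparison here. The genes that passed numbered 53 with all 4 groups in 1 fit, 0 with the first component of the non-B cell markers as a covariate, and 7 without Pax5+/- leukemias 2, 6 and 7 together, which were picked with their levels known, so that this count supports nothing. They ran from 1 to 121 when single leukemias were left out. The single gene was not the same throughout, since Armcx1 (-0.95, adjusted p = 0.00912) was the 1 gene that passed without WT leukemia 17, and Arhgap42 (-0.63, adjusted p = 0.0022) with samples of high Xist only, and without Pax5+/- leukemia 3 Zfp462 passed beside Ly86. The Pax5 difference ran from -2.21 to 0.024 when single samples were left out. Before leukemia, 97 genes passed with all 4 groups in the fit and 104 to 387 without single samples, which were left out after the data had been seen. Interaction counts ran from 6 to 98. Differences that turned sign were those of Xist (0.064 with sex as a covariate and with samples of high Xist only), Eif2s3y (-0.03 with sex as a covariate) and, over left-out samples, Dntt (-0.024 to 1.38), Ebf1 (-0.045 to 0.60), Edaradd (-0.16 to 0.19) and Apobec3 (-0.13 to 0.87). The cause was not tested. No paired analysis was made, since the genotypes are different mice and the sample titles pair none of them.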

Other observations

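Apobec3, a cytidine deaminase that restricts retroviruses, fell into a low and a high level among the leukemias of both genotypes. It was 10.65 to 11.62 in Pax5+/- leukemias 1, 3, 7 and 9 and 8.83 to 9.30 in the other 6, and it was 10.82 in WT leukemia 15 and 9.06 and 8.82 in WT leukemias 14 and 17. Before leukemia it was 8.62 to 8.77 in the 7 Pax5+/- samples and 10.92 to 11.63 in the 3 WT samples, a difference of -2.54 (SE 0.122, limma adjusted p = 8.21e-07, 7 of 7 samples below all WT samples). In leukemia the genotype difference was 0.24 (SE 0.622, adjusted p = 0.995), and the change between stages did not pass (interaction 2.78, SE 0.712, adjusted p = 0.235). The gene was chosen after its values were seen.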
